A study of Homo sapiens with 4 samples.

Results

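BCL6 is a zinc finger repressor of the germinal centre, and CUT&RUN mapped it in SUDHL5, a widely used line of diffuse large B-cell lymphoma (DLBCL) cells. Described here are the peaks on chromosome 3 from 187700000 to 188900000 (hg38). This interval of 1.2 Mb runs from BCL6 itself across the space up to LPP and over all of LPP. A peak was a member when its summit, the start of the peak plus the deposited offset, fell inside those limits. Of 5237 peaks of replicate 1, 64 were members, and of 3536 peaks of replicate 2, 53 were. Where peaks of the lists shared at least 1 bp they were joined, which gave 83 merged regions of 7379 in all. The interval was picked with earlier results on these data known, and its number of peaks was part of what was seen. Its peak numbers and strengths are therefore given as a description, with no test.

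The study is about a bivalent molecule that brings lysine acetyltransferases to BCL6, and these libraries map where BCL6 sits. In CUT&RUN an antibody brings a micrococcal nuclease fusion to nuclei, and the DNA fragments cut around the target are sequenced. Nuclei of cultured SUDHL5 cells were used throughout, and no drug, allele or time point is named for any sample. BCL6 antibody was used for 2 libraries, titled as biological replicates 1 and 2, and normal rabbit IgG for 2 more, which were not analysed here. The files hold positions and no expression values, so the label of the line could not be set against marker genes.

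As background, BCL6 binds DNA through its zinc fingers and recruits corepressors through its BTB domain. In germinal centre B cells it holds back genes of the DNA damage response, cell cycle arrest and plasma cell differentiation. It is known to bind its own promoter and to limit its own transcription. The BCL6 gene is read on the minus strand, away from LPP, so the stretch toward LPP lies upstream of it. LPP encodes a LIM domain protein of the zyxin family found at cell adhesions, and it hosts the microRNA gene MIR28. The space between the genes is known in B cells for distal enhancers of BCL6, and both genes take part in lymphoma translocations.

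The BCL6 promoter carries the leading result, so its sequence is shown first. It was taken from the RefSeq promoter table (GRCh38.p14), read 5′ to 3′ on the minus strand, from chr3:187745465-187745718. This is 250 bases before the annotated start and the first 4 transcribed bases. Capitals mark the motif TTCNNNGAA, the core that BCL6 and STAT recognition sequences share.
BCL6 promoter: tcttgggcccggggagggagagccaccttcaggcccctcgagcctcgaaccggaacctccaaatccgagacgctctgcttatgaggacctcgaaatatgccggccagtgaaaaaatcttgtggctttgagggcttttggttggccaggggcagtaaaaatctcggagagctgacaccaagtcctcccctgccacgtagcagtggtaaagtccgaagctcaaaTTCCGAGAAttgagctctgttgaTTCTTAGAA
BCL6 transcribed site: ggtgatgcaagaagtTTCTAGGAAaggcc
The shorter stretch, chr3:187745419-187745447, covers bases 22 to 50 of the first transcript and holds the site whose reverse complement reads TTCCTAGAA.

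In all, the window of 300 bases around this start held 4 matches of the motif. They began 28 and 5 bases before the start and at transcribed bases 11 and 37, and the letters were TTCCGAGAA, TTCTTAGAA, TTCTTAGAA and TTCTAGGAA. Among 34943 such windows of the table, 2675 (7.66%) held at least 1 match and 7 (0.0200%) held 4, the most of any window. Those 7 windows belong to 6 genes. TTCTAGGAA or its reverse complement stood in 0.375% of the windows, TTCTTAGAA in 0.338% and TTCCGAGAA in 0.137%. The motif reads the same on both strands, and it was chosen after this sequence had been seen. A match describes letters and is not a measured site.

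The member with the highest pileup and −log10 q in both replicates lay on this promoter. In replicate 1 the peak spanned chr3:187744913-187749446, with an authors' fold enrichment (summit over local background) of 6.38 and a −log10 q of 47.4. In replicate 2 it spanned chr3:187744966-187746215, with a fold enrichment of 11.5 and a −log10 q of 58.4. Both summits fell on the same base, 132 bp upstream of the start and between 108 and 172 bp from the 4 motif matches. The summit was thus inside the printed sequence in each library.

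The number of fragments stacked at a summit, its pileup, was solved from the deposited values. It was 112 (95% Poisson interval 92.2 to 135) in replicate 1 and 87 (69.7 to 107) in replicate 2. By pileup this peak ranked 14th of its list in replicate 1 and 13th in replicate 2. By fold enrichment it ranked 164th and 9th. The local background went the other way from the fold enrichment, at 16.7 fragments in replicate 1 and 6.68 in replicate 2. The ratio of the pileups, 1.29 (95% interval 0.964 to 1.72), included the median of 1.2 over all 1311 regions that both lists share on chromosomes 1 to 22 and X. The gap between the fold enrichments therefore went with the background and not with the pileup.

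The promoter region was also broad. Its 4534 bp made it the widest of the 1311 shared regions, whose median width was 851 bp. Replicate 1 gave a single peak over this length, and replicate 2 split it into the promoter peak and a second, weaker one. That second peak had its summit 2.48 kb upstream of the start, with a fold enrichment of 5.12 and a pileup of 35 (24.4 to 48.7). Further upstream, chr3:187749632-187751755 was found in both lists. Its summits lay 5.07 and 4.61 kb from the start, with fold enrichments of 3.61 in replicate 1 and 4.93 in replicate 2.

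**Figure D1:**
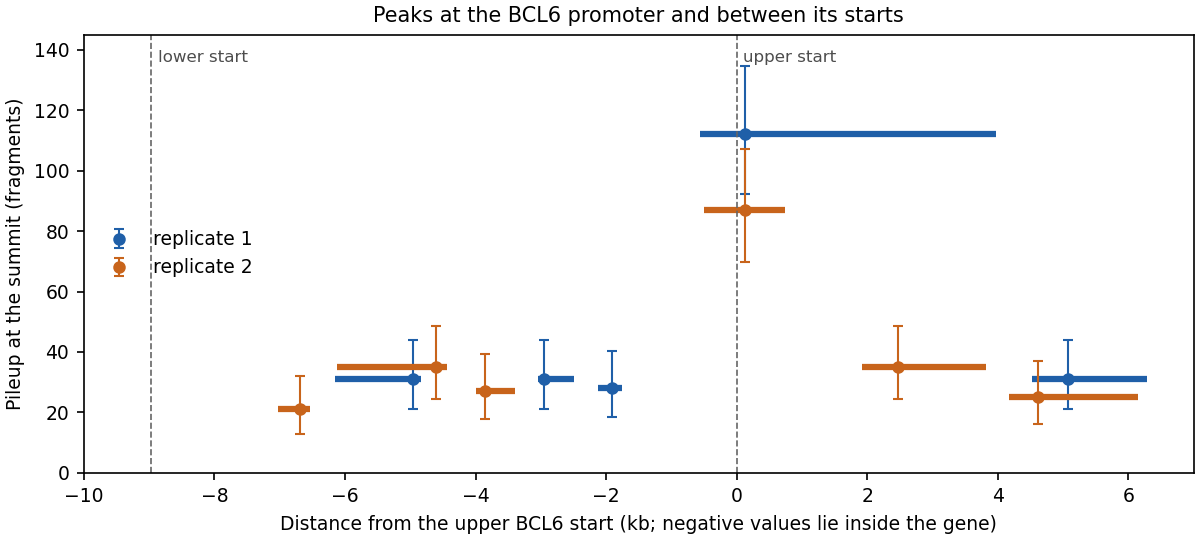
Peaks of the BCL6 zone in replicate 1 (blue) and replicate 2 (orange); the x axis is the distance of the peak from the upper BCL6 start in kb, the y axis the summit pileup in fragments. Horizontal bars span the deposited peaks, points are summits and vertical bars are exact Poisson 95% intervals; the promoter summits, at 112 and 87, stand above all other peaks, which lie between 21 and 35.

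Inside the gene, peaks kept to the stretch between the annotated starts, the first-intron side of BCL6. The starts lie 8.97 kb apart, at 187745468 and 187736501, and exons were not separated here. Of 5 regions with a summit in this stretch, 1 was found in both lists, chr3:187739314-187741026, with fold enrichments of 3.24 and 3.93. Its pileups were 31 (21.1 to 44.0) in replicate 1 and 35 (24.4 to 48.7) in replicate 2, with summits 4.96 and 4.60 kb inside the gene.

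The other 4 regions of this stretch were each in 1 list. Replicate 1 alone had peaks 2.95 kb and 1.92 kb inside the gene, with fold enrichments of 2.96 and 3.22. The nearer of these lay on the start of BCL6-AS1, a noncoding gene read toward the BCL6 promoter. BCL6-AS1 also spans the promoter summit found in both lists. Replicate 2 alone had peaks 6.69 and 3.85 kb inside, with fold enrichments of 3.94 and 3.68. All 4 pileups were between 21 and 31, so their Poisson intervals overlapped one another. From the lower start to the lower limit of the interval, over 36.5 kb that hold the rest of BCL6, LOC100131635 and part of RTP2, neither list had a peak.

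Beyond the upstream region came a stretch of 147 kb with no peak in either list. It holds 2 noncoding genes, LOC105374263 and LOC105374264. Past it the peaks were gathered in groups. Joining neighbouring summits with no gap over 10 kb gave 8 clusters of at least 3 regions, numbered here from BCL6 toward LPP. They held 66 of the 83 regions and all 27 regions found in both lists, in a summed span of 163 kb. The first cluster is the BCL6 zone just described, and clusters 2 to 5 lie between the genes. Cluster 6 lies at the start of LPP, and clusters 7 and 8 lie inside that gene, up to 95.2 kb from its start. The median distance between neighbouring summits was 2.61 kb in the interval and 50.1 kb over chromosomes 1 to 22 and X.

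**Figure D2:**
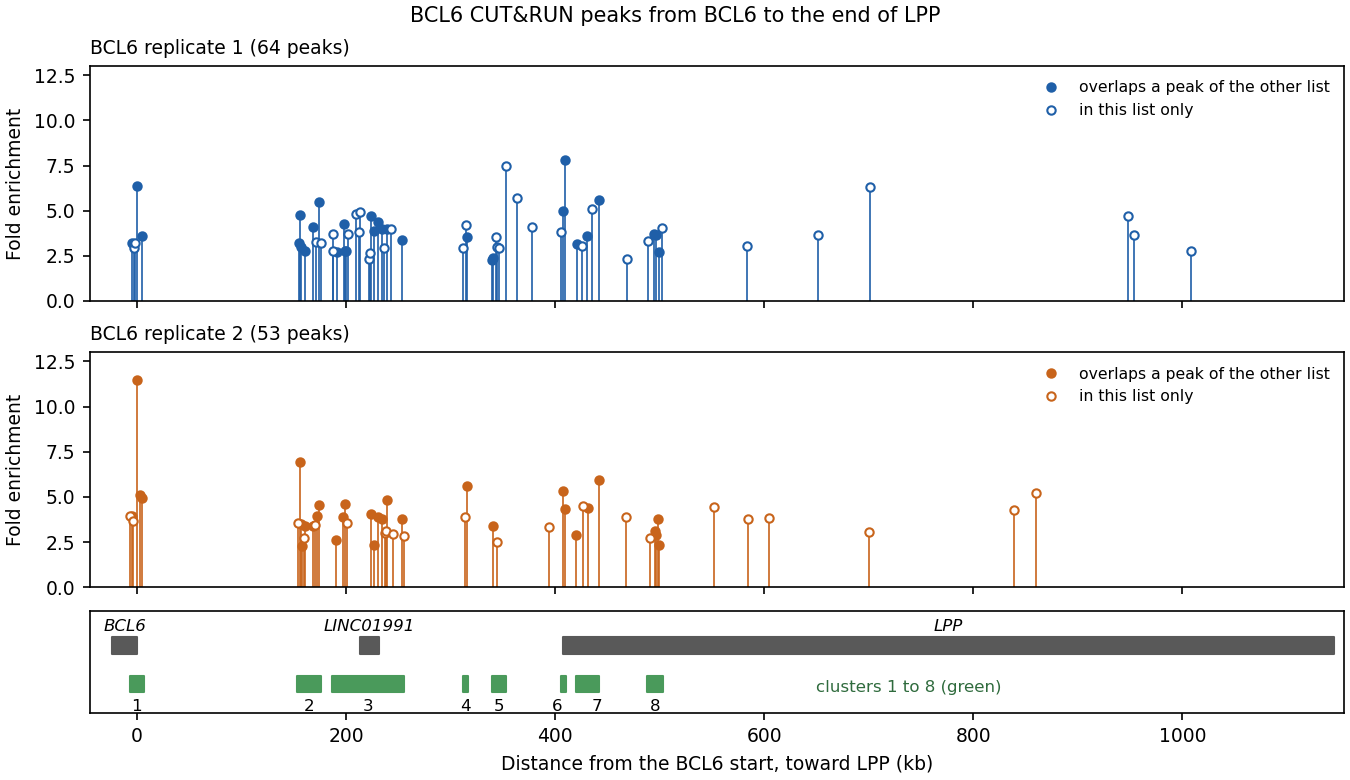
Fold enrichment (y axis) of the member peaks of each replicate against the distance of the summit from the BCL6 start in kb (x axis), with BCL6, LINC01991 and LPP in grey and the clusters in green. Filled points overlap a peak of the other list and open points do not; no filled point lies beyond cluster 8, which ends 503 kb from the BCL6 start.

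Cluster 2, chr3:187898794-187921752, begins 153 kb upstream of the BCL6 start and held 10 regions, 5 of them in both lists. Its leading region, chr3:187900065-187902013, was the second highest of replicate 2 within the interval. There the fold enrichment was 6.91 and the pileup 61 (46.7 to 78.4), against 4.75 and 46 (33.7 to 61.4) in replicate 1. The summits were 23 bp apart, inside the noncoding gene LOC124906315. The pileup ratio of 0.754 (0.503 to 1.12) lay below the median of all shared regions, and this was 1 of 2 shared members with that median outside the interval.

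At the far side of the same cluster, chr3:187917687-187919889 had fold enrichments of 5.49 in replicate 1 and 4.56 in replicate 2. The pileups were 49 (36.3 to 64.8) and 34 (23.5 to 47.5). The neighbouring chr3:187902406-187904392 had pileups of 55 and 40 but lower fold enrichments of 3.0 and 3.51, with local backgrounds of 17.7 and 10.7. A high pileup in this cluster therefore did not always mean a high fold enrichment. The remaining 2 shared regions had fold enrichments between 2.77 and 4.09.

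Cluster 3, chr3:187932296-188000506, was the longest, with 24 regions over 68.2 kb and 9 of them in both lists. It spans LINC01991, a long noncoding gene on the minus strand, which holds 6 of its summits. At the start of LINC01991, chr3:187973992-187976473 had its summits 93 and 54 bp into the gene. The fold enrichments were 4.37 and 3.87, with pileups of 57 (43.2 to 73.9) and 42 (30.3 to 56.8). The 250 bases before that start are shown because the region reaches into them, chr3:187976408-187976657 on the minus strand.
LINC01991 upstream: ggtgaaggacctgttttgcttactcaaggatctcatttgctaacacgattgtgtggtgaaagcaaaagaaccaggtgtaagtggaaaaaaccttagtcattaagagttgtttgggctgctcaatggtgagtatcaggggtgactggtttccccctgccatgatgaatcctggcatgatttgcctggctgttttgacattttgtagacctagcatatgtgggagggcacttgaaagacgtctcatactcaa
No TTCNNNGAA stands in this window.

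Also within LINC01991, chr3:187969045-187970607 had summits only 4 bp apart, with fold enrichments of 4.73 and 4.04 and pileups of 47 and 45. Just upstream of its start, chr3:187978102-187980998 had 4.00 and 3.78, with pileups of 48 and 42 and summits 50 bp apart. These 3 regions around LINC01991 had alike values in the libraries. The region chr3:187971293-187972461 between them was less alike, at 3.86 in replicate 1 and 2.33 in replicate 2, where its −log10 q was 1.82. The other 5 shared regions of cluster 3 had fold enrichments from 2.63 to 4.83. The last, at 3.37 and 3.75, lay in the noncoding gene LOC107986166 with a replicate 2 peak of 2.84 beside it. LOC105374265, another noncoding gene, held 2 peaks of replicate 1 only, at 3.73 and 2.77.

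Clusters 4 and 5 were shorter and each had 1 region in both lists. In cluster 4, chr3:188060624-188061708 lay 316 kb from the BCL6 start, with fold enrichments of 3.56 and 5.62 and pileups of 41 and 38. In cluster 5, chr3:188085004-188086640 had lower fold enrichments of 2.39 and 3.38 and pileups of 39 and 35, over backgrounds of 15.7 and 9.64.

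Some of the higher members between the genes were in replicate 1 only. The peak with the largest fold enrichment there, 7.46 at chr3:188097594-188098295 in cluster 5, had a pileup of 33 (22.7 to 46.3) over a low background of 3.55. The next, 5.68 at chr3:188109186-188109676, stood alone with a pileup of 27 (17.8 to 39.3). The next after these, chr3:187958522-187959288 in cluster 3, had 4.91. Replicate 2 had no peak over any of the 3. The 3 largest fold enrichments in replicate 2 only were smaller, 3.89 in cluster 4, 3.55 in cluster 3 and 3.55 in cluster 2.

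LPP spans 738 kb on the plus strand and held 28 region summits, 8 of them found in both lists. They were concentrated in the part of the gene nearest its start. Its first 184 kb held 19 regions, among them all 8 shared ones, and the next 3 stretches of that length held 4, 4 and 1. By peaks, the first stretch had 14 in each replicate, and the rest of the gene had 5 in replicate 1 and 4 in replicate 2.

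Around the first annotated starts of LPP lay cluster 6, with 2 shared regions. The region chr3:188152480-188153585 covers the lowest start, at 188153021, with summits 355 bp inside it in replicate 1 and 11 bp before it in replicate 2. Its fold enrichments were 5.0 and 5.31, with pileups of 38 (26.9 to 52.2) and 27 (17.8 to 39.3). The 250 bases before this start, chr3:188152771-188153020 on the plus strand, lie under the peaks of both replicates.
LPP upstream: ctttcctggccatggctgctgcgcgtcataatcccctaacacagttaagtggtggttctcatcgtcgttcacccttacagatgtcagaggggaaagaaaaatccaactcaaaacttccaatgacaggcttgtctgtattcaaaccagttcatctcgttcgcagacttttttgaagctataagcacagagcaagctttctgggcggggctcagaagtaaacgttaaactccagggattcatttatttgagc
As at LINC01991, this window held no TTCNNNGAA.

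The second region, chr3:188153897-188155431, had the largest fold enrichment of any member in replicate 1, 7.83, with a pileup of 53 (39.7 to 69.3). In replicate 2 the fold enrichment was 4.32 and the pileup 45 (32.8 to 60.2). The backgrounds were 5.90 and 9.64, so here replicate 2 had the higher background and the lower fold enrichment, the reverse of the BCL6 promoter. The pileup ratio of 1.18 (0.777 to 1.79) again held the median of all shared regions. This region lies over a pair of further LPP starts and over the start of LPP-AS2, a noncoding gene read the other way. The windows of 300 bases there have 64.7%, 74.0% and 79.3% of G or C, while that of the lowest LPP start has 45.3% and that of BCL6 53.0%. The median over all windows is 58.7%.

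Cluster 7 covers LPP from 12.5 to 34.6 kb after its lowest start and held 3 shared regions of 6. The highest, chr3:188186850-188187584, had fold enrichments of 5.59 and 5.95 with summits 76 bp apart. Its pileups were 47 (34.5 to 62.5) and 27 (17.8 to 39.3). The region chr3:188165509-188166062 had fold enrichments of 3.13 and 2.87. At chr3:188175864-188176755 they were 3.59 and 4.39, on pileups of only 16 and 15.

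Cluster 8, from 80.7 to 95.2 kb into LPP, held the shared member whose pileup differed most between the libraries. At chr3:188239428-188241583 replicate 1 had a pileup of 72 over a background of 18.7, and replicate 2 had 28 over 8.36. The ratio of 2.57 (1.64 to 4.13) was the other one with the median of all shared regions outside its interval. The summits were 1532 bp apart, so the values come from different places within 1 joined region. The fold enrichments were closer, at 3.71 and 3.10. The neighbour chr3:188241877-188243743 had 3.66 and 3.78, with summits 1403 bp apart, so these values also come from different places. Its other replicate 2 peak, nearer to the replicate 1 summit, had 2.86. The neighbour chr3:188244322-188244964 had 2.69 and 2.35.

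Past cluster 8 the remaining 642 kb of LPP held 12 regions, and 0 of them were in both lists (Wilson 95% upper limit 24.2%), against 17.8% of all merged regions, a share that lies within this limit. Replicate 1 had 6 of them with pileups of 16 to 26, and replicate 2 had 6 with pileups of 13 to 18. The largest fold enrichments were 6.29 in replicate 1, at chr3:188446418-188446849, and 5.2 in replicate 2, at chr3:188605621-188606171. The pileup behind the latter was 13 (6.92 to 22.2) over a background of 1.69, so this fold enrichment rests on few fragments. It lay in the noncoding gene LOC124906316, and LPP-AS1, also noncoding, held no peak summit. A replicate 2 peak, chr3:188445795-188446186, lay just below the former without overlapping it. Other single-list peaks of LPP with large fold enrichments lay in cluster 7, 5.07 in replicate 1, inside the noncoding gene FLJ42393, and 4.50 in replicate 2. Others lay at chr3:188693038-188693593 (4.73, replicate 1) and chr3:188296964-188297412 (4.41, replicate 2). The former was the member nearest to MIR28, 4.45 kb from it.

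**Figure D3:**
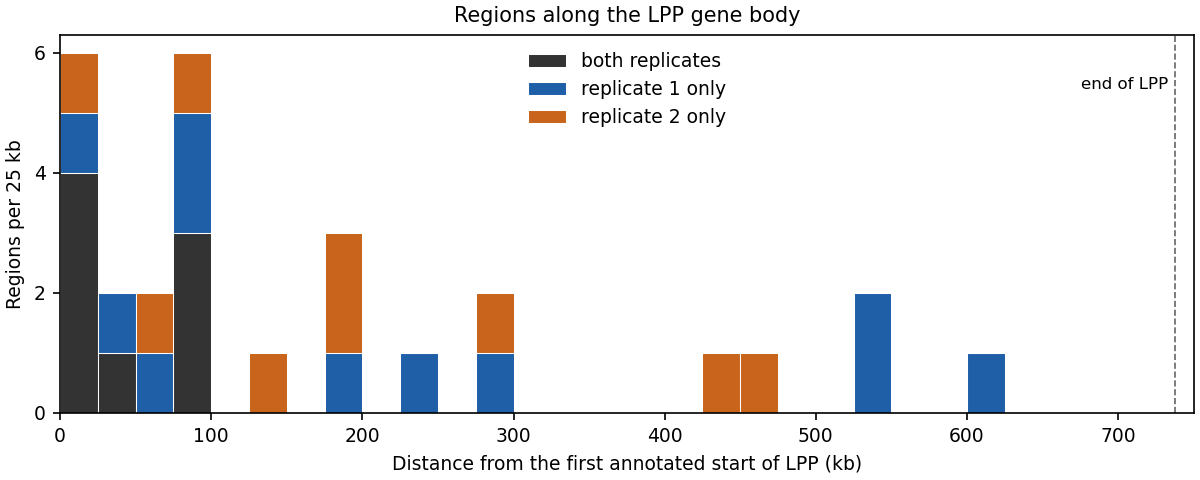
Number of merged regions (y axis) in bins of 25 kb along LPP, by distance from its first annotated start in kb (x axis); black, blue and orange mark regions in both replicates, replicate 1 only and replicate 2 only. All 8 regions of both lists lie in the first 100 kb, and single-list regions are spread over the rest.

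Across the interval, peaks were densely spaced and of ordinary fold enrichment. The median fold enrichment of members was 3.63 in replicate 1 and 3.78 in replicate 2, against 3.55 and 3.74 over chromosomes 1 to 22 and X. Median pileups were 30 and 25 in the interval, against 23 and 21, and median backgrounds were 7.71 and 6.41, against 5.90 and 4.63. Pileup and background were thus both higher in the interval, and their ratio was close to that of all peaks. Whether the higher local coverage had a part in the number of peaks was not tested.

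The density was 6.92 merged regions per 100 kb, against 0.243 over chromosomes 1 to 22 and X. It was 13.9 in the BCL6 zone (up to 5 kb above the gene), 11.8 between the genes and 3.86 in the LPP zone (from 5 kb below its start). When 2513 windows of 1.2 Mb were laid end to end, the median held 1 merged region and the 99th percentile was 19. Away from the interval the fullest window, on chromosome 6 from 25289071 to 26489070, had 48 merged regions, against 83. In replicate 1 that window had 40 peaks, against 64, and in replicate 2 it had 36, against 53. By regions found in both lists the difference was small, with 25 in that window against 27 in the interval. The interval was placed with its peaks known and the windows on a fixed grid, so this does not show a lead. Outside the limits, the nearest replicate 1 summits lay 511 kb below and 5235 kb above them, and those of replicate 2 lay 633 and 5238 kb away, with fold enrichments of 2.80 to 4.04. Just inside, the first and last summits had 3.24 and 2.74 in replicate 1 and 3.94 and 5.2 in replicate 2.

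**Figure D4:**
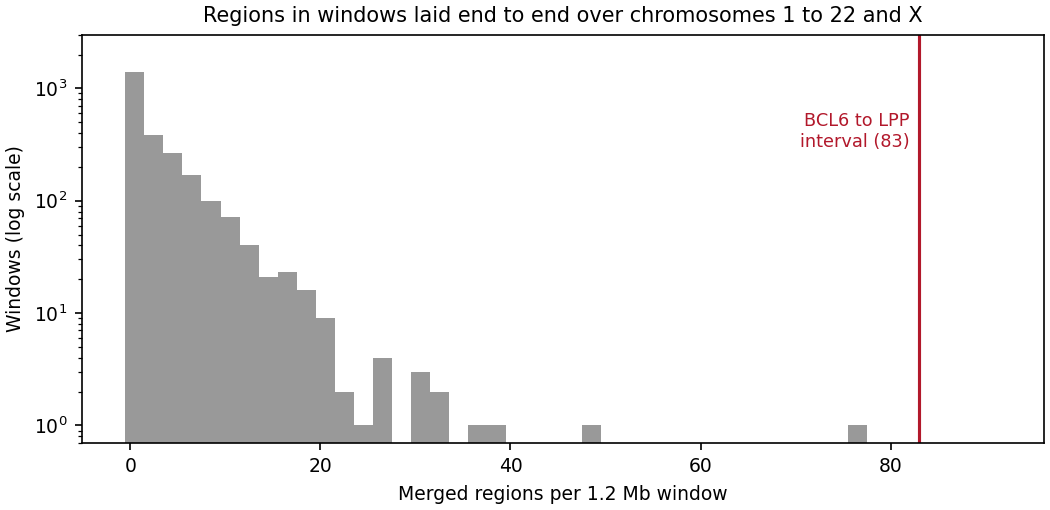
Distribution of merged regions per window of 1.2 Mb over chromosomes 1 to 22 and X (x axis, regions; y axis, number of windows on a log scale). The red line marks the 83 regions of the BCL6 to LPP interval; the single bar near it, at 76, is a window that overlaps the interval.

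Members were found in the other list more often than peaks at large when any overlap counted. Of the 64 replicate 1 members 30 overlapped a replicate 2 peak (46.9%, Wilson 95% interval 35.2 to 58.9), against 25.8% of all replicate 1 peaks. Of the 53 replicate 2 members 31 did (58.5%, 45.1 to 70.7), against 38.5%. Among merged regions, 27 of 83 were in both lists (32.5%, 23.4 to 43.2), against 17.8%. With a reciprocal overlap of at least 50%, 26.6% of replicate 1 members (14.6% of all peaks) and 32.1% of replicate 2 members (21.6%) were found. When −log10 q had to reach 5 in both lists, 15 of 34 replicate 1 members (44.1%) had a match, against 26.9% of all, and 17 of 22 replicate 2 members (77.3%) did, against 43.5%. Member peaks were wider, with medians of 584 and 551 bp against 454 and 435 bp, and they were closely spaced.

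With summits required to lie within 200 bp, the difference was gone. The shares were then 17.2% (9.88 to 28.2) in replicate 1, against 16.5% of all peaks, and 20.8% (12.0 to 33.5) in replicate 2, against 24.4%. In shared members the median distance between summits was 266 bp, and over all shared regions it was 91 bp. Summits within 50 bp of each other were seen in 8 of the 27, namely the BCL6 promoter, 3 regions of cluster 2 and 4 of cluster 3. The part of width and spacing in the share found was not tested.

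Many peaks in 1 list only had a neighbour in the other. Of 22 regions in replicate 2 only, 14 (63.6%) lay within 1 kb of a replicate 1 peak, against 15.8% of all such regions. Of 34 in replicate 1 only, 12 (35.3%) lay within 1 kb of a replicate 2 peak, against 9.99%. The parts of the dense spacing and of any likeness of the libraries in these shares were not tested.

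**Figure D5:**
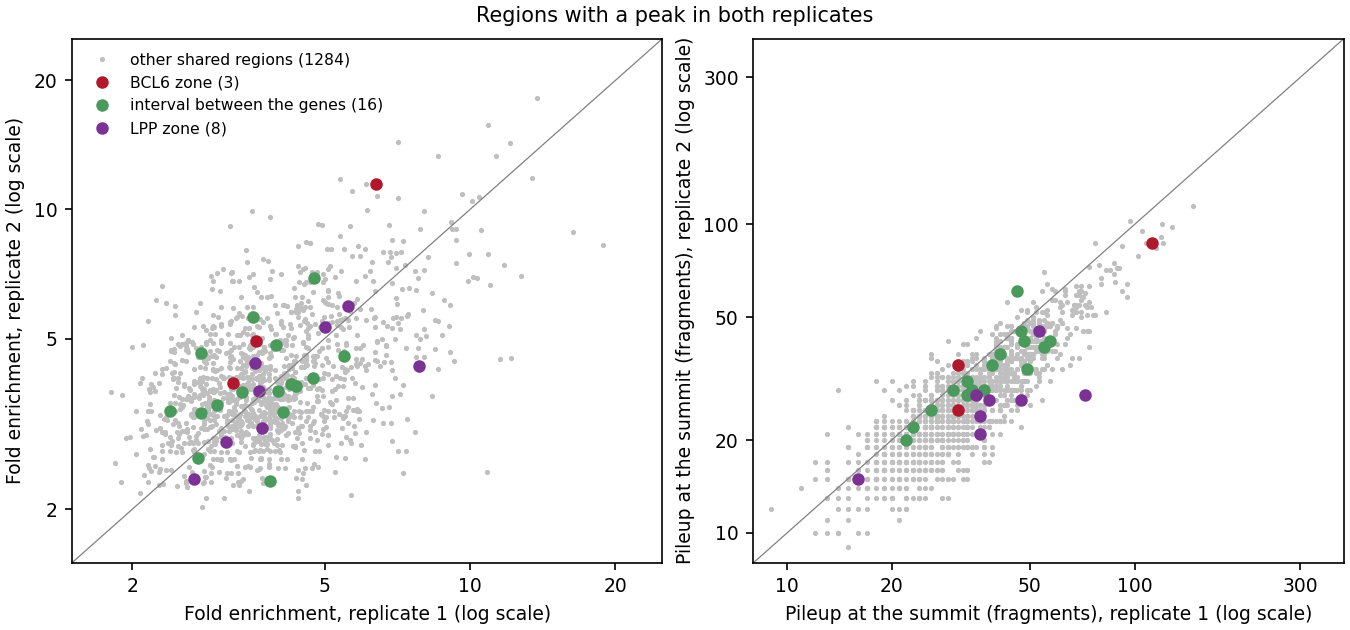
Replicate 1 (x axis) against replicate 2 (y axis) for the regions in both lists, by fold enrichment (left) and by summit pileup in fragments (right), both on log scales. Red, green and purple points are members in the BCL6 zone, between the genes and in the LPP zone, grey points the other 1284 shared regions, and the diagonal marks equal values; members lie within the grey cloud, the BCL6 promoter (6.38 and 11.5; 112 and 87) near its upper edge.

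The smaller of both fold enrichments had a median of 3.59 in the 27 shared members and 3.30 in all 1311 shared regions. It ranged from 2.33 to 6.38 in the members, and the BCL6 promoter ranked 51st by this value. By the smaller pileup it ranked 7th. Fold enrichment was higher in replicate 1 in 12 members and in replicate 2 in 15. Over all shared regions, 46.3% had the higher fold enrichment in replicate 1. Pileups were higher in replicate 1 in 25 of 27 members, a share not counted over all shared regions. The median pileup ratio was 1.18 in these members and 1.2 over all shared regions. Backgrounds were higher in replicate 1 in 23 of 27 (75.6% of all shared regions had the higher background in replicate 1). In 25 of 27 members the interval of the pileup ratio held the median of all shared regions.

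The genes most like BCL6 were sought among the 527 protein-coding genes, BCL6 included, with a shared region within 1 kb of an end. Likeness was the distance between the log2 fold enrichments in both libraries, and n is 2 values a gene. The nearest was GALR2, a galanin receptor, with 6.41 and 10.8. After it came the histone gene H4C2 with 5.63 and 9.14, HSP90B1, a chaperone of the endoplasmic reticulum, with 6.89 and 8.49, and H4C11 with 7.27 and 8.46. MITD1 and MRPL30 share 1 region with 6.60 and 7.94. Pileups differed among them, from 23 and 20 at H4C11 to 105 and 95 at HSP90B1, so like fold enrichments did not mean like depth.

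Protein-coding genes from 0.67 to 1.5 times the length of LPP numbered 261, LPP included. With 3.80 merged regions per 100 kb of gene body it ranked 2nd, while 194 of these genes had none. The 5 genes nearest to it in density were FOXP1, KLF12, PARD3, NPAS3 and ZBTB20. FOXP1, a forkhead factor of B cells, was the only one above it, with 5.09 per 100 kb and 32 regions, 7 of them shared. The others had 1.32 to 1.77 per 100 kb, and KLF12, with 11 regions, had none in both lists.

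Shared regions within 10 kb of a gene end were then counted in lists of related genes, where 4.72% of all 19974 protein-coding genes had one. Of 18 regulators of BCL6 transcription, 2 had a shared region (11.1%, Wilson 95% interval 3.10 to 32.8). They were IRF8, an interferon regulatory factor that activates BCL6, with fold enrichments of 3.19 and 5.47 at 9.73 kb, and FOXO3, a forkhead activator, with 4.56 and 4.46 at 5.80 kb. Of the other regulators, FOXO1, PRDM1, EBF1 and POU2F2 held a shared region inside the gene, more than 10 kb from either end. In the zyxin family, LPP was the only 1 of 7 (14.3%, 2.57 to 51.3), although LIMD1 had 3 peaks of replicate 1 and 1 of replicate 2 within 10 kb of an end and a shared region deeper inside the gene. Of 9 genes that are the paralog BCL6B or lie around the interval, none had one (0%, up to 29.9%). BCL6B had 2 replicate 1 peaks within 10 kb and no replicate 2 peak. RTP1 had 1 replicate 1 peak, and the other 7, SST, RTP2, RTP4, MASP1, TPRG1, TP63 and CLDN1, had none in either list within 10 kb.

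Promoter windows in the interval numbered 21. Peaks overlapped 8 in replicate 1 and 7 in replicate 2, with 6 under peaks of both. These 6 were the upper BCL6 start, LINC01991, LPP-AS2 and the 3 lowest LPP starts. The lower BCL6 start and 3 further LPP starts lay under no peak, and the last LPP start lay under a replicate 2 peak only. Only the upper BCL6 window held TTCNNNGAA, so the other 5 windows under peaks of both lists held none within their 300 bases. Over all windows, 7.66% held at least 1 match. The upper BCL6 window was also the only one with the summits of both replicates inside it. Of the other 5, the lowest LPP window held a replicate 2 summit and the rest held none. Sequence at most of those summits was therefore not searched. The windows of LPP-AS2 and the next LPP starts overlap in part.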

How the data were processed

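BCL6 CUT&RUN peaks of SUDHL5 were deposited by the authors as 1 list per library. Groups and replicate numbers came from the sample titles. The titles call the replicates biological, without saying whether they are separate cultures. The build is hg38, and the tools named are MACS2, Bowtie2, Picard, cutadapt, SAMtools, deepTools, FastQC and bedtools, per the submitters' processing notes. Versions, and the settings and control of the peak caller, were not stated there.

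The deposited values are a fold enrichment, a ratio of (pileup + 1) to (background + 1) at the summit, and −log10 of p and of q. Fold enrichments and −log10 q are the authors' throughout. Read totals are unknown. The whole-number pileup and its background were solved from the deposited ratio and −log10 p. All 117 member peaks were solved within 0.001, and the solver was tested on simulated data. Poisson and binomial intervals (95%) cover counting error alone and treat fragments as independent, which reads copied by PCR are not. Wilson intervals (95%) also cover counting error alone. They treat peaks, regions or genes as independent, which closely spaced neighbours in 1 locus may not be.

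Where a region held several peaks of 1 list, the peak with the highest −log10 q gave its values. Pileup ratios carry exact binomial intervals. Windows were laid from the first to the last annotated gene of chromosomes 1 to 22 and X. Gene ends came from the RefSeq gene table (GRCh38.p14, the assembly of hg38), and starts, strands and bases from its promoter table, with 34943 windows of 300 bases.

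The members and the gene lists were chosen with earlier results of these data known. By rule, the text names every shared region (weaker ones by range), the single-list regions of the BCL6 zone, the 3 strongest single-list regions elsewhere per zone and list, the genes of the interval, the 5 genes most like BCL6 or LPP and up to 4 members of each list with a shared region. All other list members named, and the motif, were chosen after their values were seen. No test was planned or run, as only 1 group had files. Calculations used Python 3.11.15, pandas 2.3.3, NumPy 2.4.6, SciPy 1.17.1 and matplotlib 3.10.9. Alternatives changed the overlap rule, the −log10 q threshold, merging, cluster gaps, zone edges, the pseudocount and the lists used.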

Additional observations from a re-analysis of the deposited data

How the results depend on the processing

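With no pseudocount, the 1 alternative tried for it, the fold enrichment at the BCL6 promoter was 6.70 in replicate 1 and 13 in replicate 2, each inside its counting interval. The 27 regions in both lists became 17 with a reciprocal overlap of at least 50%, 11 pairs by summits no more than 200 bp apart, 15 when −log10 q had to reach 5 and 5 when it had to reach 10. The 83 merged regions became 48 with gaps of up to 1 kb closed, 39 with −log10 q of at least 5, 15 with at least 10, and 53 to 64 with 1 replicate left out. The 8 clusters became 5 with a largest gap of 20 kb and 12 with 5 kb, and 6 to 8 with 1 replicate left out. With −log10 q of at least 5, merged regions per 100 kb were 7.93 in the BCL6 zone, 6.29 between the genes and 1.33 in the LPP zone. With 1 replicate left out they were 7.93 to 11.9, 7.29 to 10.1 and 2.39 to 2.66. The share of replicate 1 members found in the other list was 26.6% by reciprocal overlap (all peaks 14.6%) and 17.2% by summits. That of replicate 2 members was 32.1% (all peaks 21.6%), 20.8% by summits, and 77.3% with −log10 q of at least 5 in both lists (all peaks 43.5%). The median fold enrichment with −log10 q of at least 5 was 4.14 and 4.18. Lower counts under stricter thresholds follow from having fewer peaks.

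No window away from the interval held as many merged regions under any of 6 alternatives, chosen after seeing the data. The closest of these was −log10 q of at least 10, with 15 merged regions in the interval and 13 in the fullest window elsewhere. All 6 kept the interval, whose limits were placed with its peaks known, and set it against windows on a grid placed without regard to peaks. They therefore cannot show a lead of the interval. Regions in both lists were not counted in these alternatives. With the main settings the fullest window elsewhere held 25 of them, against 27. Regions in both lists have no value with a replicate left out. No paired analysis was possible because the IgG libraries that share the replicate numbers were not analysed here. Depth limits the weaker members: a pileup of 13 to 18, as in the far part of LPP in replicate 2, has a wide counting interval.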
